A study of Mus musculus with 6 samples.

Results

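Mitosis and cytokinesis genes encode the machinery that condenses, aligns and separates chromosomes and then divides the cell. The 46 genes described here were named as a list, and every one was found by an exact match of its symbol to the 24421 gene symbols of the count table. All 46 had enough counts to be tested, among 14852 tested genes. The RNA came from brain cortex of C57BL/6 mice, and both groups had MCAO (middle cerebral artery occlusion), which models ischaemic stroke by blocking a main artery of the brain. The labels give 3 replicates treated with GFP (green fluorescent protein), used here as the control, and 3 treated with NeuroD1, a proneural transcription factor. The series title calls the treatment an intravenous gene therapy; the sources used here do not give the vector, its promoter, the time after MCAO, the age or the sex. Nothing in the labels ties each replicate to a separate animal, so p-values cover only the spread among the 6 samples, some of which may be technical.

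Most mature brain cells do not divide. After a stroke, microglia, infiltrating leukocytes, fibroblasts of the scar, endothelial cells and glial precursors can enter the cell cycle, and mitotic transcripts in bulk tissue come from whichever cells are doing so. These transcripts are kept low in resting cells by the DREAM complex and are switched on together late in the cycle by B-Myb and FoxM1. The MuvB core shared by these complexes binds a promoter element called the CHR (cell cycle genes homology region), usually near CCAAT boxes, which NF-Y binds. In bulk samples, a larger number of dividing cells and more mitotic RNA per cell cannot be told apart.

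The promoters show what the listed genes share in sequence. RefSeq promoter windows on GRCm38.p6, from 250 bases before to 50 bases after the annotated start, were matched by symbol or gene ID for 38 of the 46 genes; Ccna2, Cdc25c, Foxm1, Smc4, Spc24, Aurkb, Tpx2 and Kif20a had no matching entry. Where a gene had several entries (3 genes), the first was used. The CHR was searched as TTTGAA, its reverse complement TTCAAA and the self-complementary TTTAAA, and the CCAAT box as CCAAT and ATTGG. In all, 7 stretches from 120 bases before to 40 bases after the start are printed, 5′ to 3′ along the gene, with both kinds of match in capitals. They were chosen to show the cyclin and kinase pair of mitotic entry, 4 further genes with both motifs, and Nusap1, which has neither. The windows are Cdk1 at chr10:69352873-69353032 (minus strand), Ccnb1 at chr13:100786447-100786606 (minus), Ccnb2 at chr9:70421515-70421674 (minus), Top2a at chr11:99024150-99024309 (minus), Hmmr at chr11:40733398-40733557 (minus), Prc1 at chr7:80294331-80294490 (plus) and Nusap1 at chr2:119618178-119618337 (plus).
Cdk1: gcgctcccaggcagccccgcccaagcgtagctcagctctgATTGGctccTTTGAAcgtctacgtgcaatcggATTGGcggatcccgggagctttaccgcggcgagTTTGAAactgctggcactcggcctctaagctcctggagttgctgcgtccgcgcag
Ccnb1: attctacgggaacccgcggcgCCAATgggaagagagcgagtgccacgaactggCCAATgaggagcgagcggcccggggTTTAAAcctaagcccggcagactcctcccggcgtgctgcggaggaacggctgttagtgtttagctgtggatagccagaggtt
Ccnb2: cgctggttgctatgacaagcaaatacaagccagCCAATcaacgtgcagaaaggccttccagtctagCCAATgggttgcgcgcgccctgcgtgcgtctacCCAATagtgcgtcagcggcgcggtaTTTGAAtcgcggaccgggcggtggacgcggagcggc
Top2a: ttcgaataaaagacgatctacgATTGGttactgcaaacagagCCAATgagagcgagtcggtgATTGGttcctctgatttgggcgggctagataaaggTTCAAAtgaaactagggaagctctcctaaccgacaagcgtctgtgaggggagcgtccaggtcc
Hmmr: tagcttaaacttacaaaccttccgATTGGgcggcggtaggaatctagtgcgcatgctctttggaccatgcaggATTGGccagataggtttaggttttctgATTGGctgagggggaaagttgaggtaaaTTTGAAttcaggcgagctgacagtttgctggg
Prc1: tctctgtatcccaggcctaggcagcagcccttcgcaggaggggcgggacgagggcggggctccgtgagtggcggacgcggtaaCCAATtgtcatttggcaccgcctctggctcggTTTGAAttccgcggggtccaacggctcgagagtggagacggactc
Nusap1: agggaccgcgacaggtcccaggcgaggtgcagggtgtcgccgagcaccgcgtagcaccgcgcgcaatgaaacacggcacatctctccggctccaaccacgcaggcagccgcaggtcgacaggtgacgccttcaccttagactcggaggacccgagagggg

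In Cdk1 a CHR match lay 15 bases before the start, with CCAAT boxes 80 and 48 bases before it. Ccnb1 had CCAAT boxes 99 and 67 bases before the start and a CHR match 42 bases before it. The Ccnb2 window held 3 CCAAT boxes 87, 54 and 21 bases before the start and a CHR match 4 bases after it. A CHR match between 100 bases before and 50 bases after the start was present in 29 of the 38 promoters (76.3%), against 7.21% of the 11231 promoters of tested genes and 12.9% of all 27025 promoters. At least 1 CCAAT box stood anywhere in the window in 28 of 38 (73.7%), against 38.1% of the promoters of tested genes and 37.9% of all. Both features together were found in 25 of 38 (65.8%), against 2.94% and 5.04%. Pairs of CCAAT boxes in the same orientation, with starts 31 to 33 bases apart, were found in 8 of 38 (21.1%), against 1.49% and 0.862%. No CHR match overlapped a CCAAT match in these 38 windows. Ncaph, Nuf2, Nusap1 and Knstrn had neither motif in the window. These are matches of letters, and binding was not measured.

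**Figure D1:**
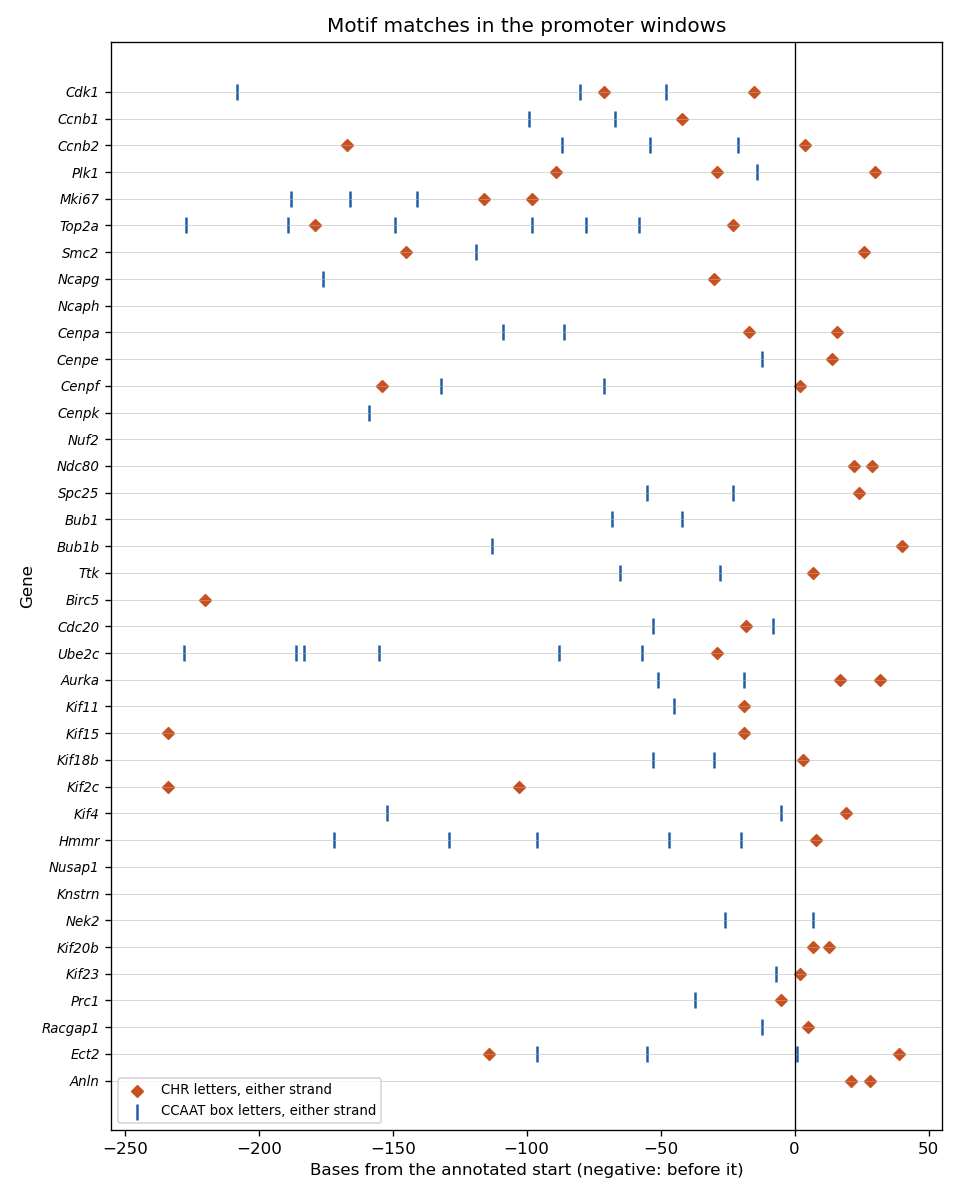
Positions of CHR letters (diamonds) and CCAAT box letters (bars) on either strand in the promoter windows of 38 genes; the x axis gives bases from the annotated start, drawn as a vertical line, and each row is a gene. Most CHR matches lie near the start, and 29 of the 38 windows hold one from 100 bases before it to 50 bases after it.

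Total read counts ran from 7753101 to 9698795 in the GFP libraries and from 10843273 to 13440244 in the NeuroD1 libraries, so every NeuroD1 library was deeper. Rn45s, the ribosomal RNA precursor, took 1.22%, 7.25% and 0.752% of the counts in GFP replicates 1 to 3 and 0.753%, 0.344% and 0.22% in the NeuroD1 replicates, so GFP replicate 2 stood apart. Its part in the differences was not tested. The 46 genes together held 4774 to 5277 counts in the GFP libraries and 7779 to 22266 in the NeuroD1 libraries. Levels are given as CPM (read counts relative to library size, scaled by the TMM method), on which a single count is worth 0.0753 to 0.134 CPM. The Neurod1 gene itself had 644, 151 and 428 counts in the NeuroD1 libraries against 64, 29 and 50 in the GFP libraries, in the direction of the labels. A delivered copy and the mouse gene are not separated. The 8 cortical neuron markers were all detected, with a summed level of 1631 to 5014 CPM per library.

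Every one of the 46 genes had a higher fitted level with NeuroD1, with a median log2 fold change of 1.22 against 0.0243 over all tested genes, of which 51.7% were fitted higher. At an unadjusted p under 0.05 in edgeR's quasi-likelihood test, 32 of 46 were higher and 0 lower, against 12.5% of all tested genes higher. The groups did not overlap in 23 of 46 genes, all higher with NeuroD1, against 14.2% of tested genes. After Benjamini-Hochberg adjustment over all tested genes 0 of 46 passed the threshold of 0.05 in edgeR (0.0% of tested genes). With limma-voom 0 of 46 passed as well, and DESeq2 called 21 of 46 higher and 0 lower, against 5.07% and 3.93% of the genes it tested. The edgeR adjusted p of the listed genes ran from 0.136, shared by 10 of them, to 0.798.

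Single libraries moved these counts. Without NeuroD1 replicate 2 the median log2 fold change was 0.59 and 20 of 46 genes were higher at an unadjusted p under 0.05 (12.2% of tested genes). Without GFP replicate 1 the count was also 20 (14.2%). It was 29 without GFP replicate 2 (6.53%), 23 without GFP replicate 3 (6.13%), 30 without NeuroD1 replicate 1 (7.79%) and 40 without NeuroD1 replicate 3 (15.3%). Leaving out a GFP library took the DESeq2 count to 14 (replicate 1; 8.23% of tested genes), 8 (replicate 2; 0.883%) or 7 (replicate 3; 1.06%). Leaving out a NeuroD1 library took it to 9 (replicate 1; 1.24%), 11 (replicate 2; 3.44%) or 36 (replicate 3; 8.61%). Genes without overlap numbered 40 without NeuroD1 replicate 3 (23.6% of tested genes) and 25 without GFP replicate 3 (16.1%). Leaving out NeuroD1 replicate 2 could not change the count of 23 (22.2% of tested genes). NeuroD1 replicate 3 was the lowest NeuroD1 library in 46 of 46 genes. The overlap thus depended on its level and on the highest GFP library of each gene.

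The 3 NeuroD1 libraries differed widely, and in the same way for every gene. Replicate 2 was the highest of all 6 libraries and replicate 3 the lowest of the NeuroD1 libraries in 46 of 46 genes. The summed level of the 46 genes was 483.4, 639.9 and 573.4 CPM in GFP replicates 1, 2 and 3 and 1159, 2155 and 698.2 CPM in NeuroD1 replicates 1, 2 and 3. NeuroD1 replicate 3 thus lay just above the GFP range on the sum. In NeuroD1 replicate 2 the median gene stood 3.74-fold above its GFP mean, in replicate 1 it stood 1.90-fold above, and in replicate 3 it stood 1.13-fold above. Replicate 2 exceeded all 3 GFP libraries in 46 genes, replicate 1 in 40 and replicate 3 in 23. The coefficient of variation (SD over mean) between libraries had a median of 55.4% with NeuroD1 and 20.0% with GFP over the 46 genes, against 24.7% and 19.0% over all tested genes. Within the GFP group, replicate 1 was the lowest of all 6 libraries in 36 of 46 genes.

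**Figure D2:**
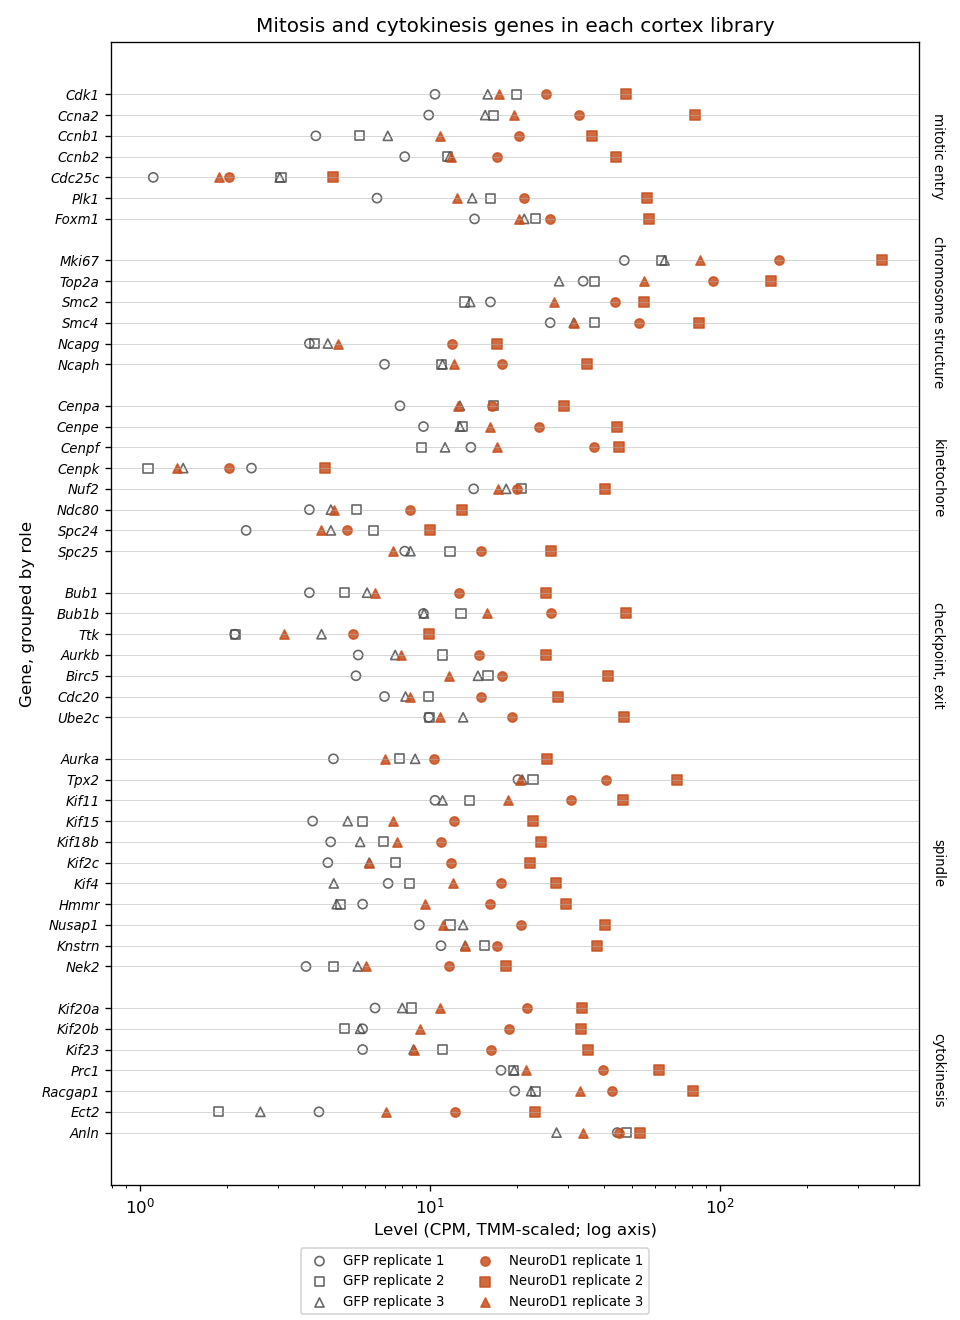
Level of each of the 46 genes (CPM, TMM-scaled, log axis) in the 3 GFP libraries (open grey) and the 3 NeuroD1 libraries (filled orange); symbol shape gives the replicate and rows are grouped by role. The filled square, NeuroD1 replicate 2, is the rightmost point in every row, while the filled triangle, NeuroD1 replicate 3, often lies among the GFP points.

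Cyclins, their kinase and its controllers start mitosis. Of 7 such genes 5 were higher at an unadjusted p under 0.05, with a group median log2 fold change of 1.21. Ccnb1, the mitotic B-type cyclin (chromosome 13, 100778650 to 100786570, GRCm38), stood at 4.05, 5.74 and 7.17 CPM in GFP replicates 1 to 3 and at 20.3, 36.4 and 10.9 CPM in the NeuroD1 replicates. All NeuroD1 libraries lay above all GFP libraries, a 3.97-fold difference (log2 fold change 1.99, SE 0.45; edgeR adjusted p = 0.136). It was 2.77-fold without NeuroD1 replicate 2. Ccna2, the cyclin of S phase and mitotic entry, read 9.92, 16.6 and 15.5 CPM with GFP and 32.7, 82.0 and 19.5 CPM with NeuroD1. Here too the groups did not overlap, at 3.19-fold (edgeR adjusted p = 0.141; 1.88-fold without NeuroD1 replicate 2).

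Cdk1, the kinase these cyclins activate, had 10.4, 19.9 and 15.9 CPM with GFP and 25.2, 47.4 and 17.3 CPM with NeuroD1. NeuroD1 replicate 3 lay below GFP replicate 2, so the groups overlapped; the fold was 1.95 (edgeR adjusted p = 0.192; 1.39 without NeuroD1 replicate 2). Foxm1, the transcription factor that drives many late cell cycle genes, had 14.3, 23.2 and 21.2 CPM with GFP and 26.0, 57.2 and 20.3 CPM with NeuroD1. It overlapped in the same way, with an edgeR adjusted p of 0.244, a fold of 1.76 and one of 1.19 without NeuroD1 replicate 2. Cdc25c, a phosphatase that activates Cdk1, was scarce and the groups overlapped, at 1.11, 3.07 and 3.04 CPM with GFP against 2.03, 4.65 and 1.89 CPM with NeuroD1 (edgeR adjusted p = 0.798). Its fitted direction turned when GFP replicate 1 (log2 fold change -0.14) or NeuroD1 replicate 2 (-0.28) was left out. Ccnb2, a second B-type cyclin, and Plk1, a kinase that drives entry and spindle assembly, were 2.32-fold and 2.44-fold higher at an unadjusted p under 0.05, and 1.39-fold and 1.38-fold without NeuroD1 replicate 2.

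Chromosome structure genes had the highest group median, 1.50, and all 6 were higher at an unadjusted p under 0.05. Mki67 encodes Ki-67, the coat protein of mitotic chromosomes that is widely used as a proliferation marker (chromosome 7, 135689784 to 135716361). It read 46.9, 63.0 and 64.5 CPM with GFP and 160.0, 363.4 and 85.3 CPM with NeuroD1. The groups did not overlap, and the fold was 3.49 (log2 fold change 1.80, SE 0.48; edgeR adjusted p = 0.137), or 2.12 without NeuroD1 replicate 2. Mki67 also took a larger share of the summed level of the 46 genes in every NeuroD1 library (13.8%, 16.9% and 12.2%) than in any GFP library (9.70%, 9.85% and 11.3%).

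Top2a, the topoisomerase that untangles sister DNA, read 33.8, 37.0 and 27.9 CPM with GFP and 94.5, 151 and 54.7 CPM with NeuroD1. Smc2, the ATPase arm of condensin, which compacts mitotic chromosomes, read 16.2, 13.2 and 13.8 CPM with GFP and 43.4, 54.8 and 26.9 CPM with NeuroD1. Neither gene overlapped, and Smc2 had the smallest p of the 46 genes (2.89-fold, log2 fold change 1.53, SE 0.29; edgeR adjusted p = 0.136; 2.45-fold without NeuroD1 replicate 2). Its condensin partner Smc4 read 26.0, 37.0 and 31.4 CPM with GFP and 52.7, 85.1 and 31.4 CPM with NeuroD1. There NeuroD1 replicate 3 was at the GFP level, and the fold was 1.79 (edgeR adjusted p = 0.192). The condensin I subunits Ncapg and Ncaph were 2.75-fold and 2.23-fold higher without overlap, and 2.06-fold and 1.56-fold without NeuroD1 replicate 2.

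Centromere and kinetochore genes, which tie chromosomes to spindle microtubules, had the lowest group median, 0.71, and 2 of 8 were higher at an unadjusted p under 0.05. These were the large kinetochore proteins Cenpf and Cenpe. Cenpf (chromosome 1, 189640606 to 189688086) read 13.9, 9.35 and 11.3 CPM with GFP and 37.0, 45.1 and 17.1 CPM with NeuroD1. Cenpe, a kinetochore motor that moves chromosomes to the spindle equator, read 9.52, 12.96 and 12.7 CPM with GFP and 23.9, 44.1 and 16.2 CPM with NeuroD1. In both genes all NeuroD1 libraries lay above all GFP libraries, at 2.86-fold and 2.39-fold (edgeR adjusted p = 0.136 and 0.140).

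The other 6 kinetochore genes overlapped between groups. All 4 subunits of the Ndc80 complex, the main microtubule attachment, were among them, with fitted folds of 1.87 for Ndc80, 1.46 for Nuf2, 1.47 for Spc24 and 1.71 for Spc25 (edgeR adjusted p = 0.213, 0.352, 0.474 and 0.297). Without NeuroD1 replicate 2 these were 1.43, 1.05, 1.08 and 1.19. Cenpa, the histone H3 variant that marks centromeres, averaged 12.4 ± 4.34 CPM in the GFP libraries and 19.3 ± 8.65 CPM in the NeuroD1 libraries (SD, n = 3 each). Cenpk, a subunit of the constitutive centromere network, had the fewest counts of the group, 8 to 24 with GFP and 15 to 45 with NeuroD1, or 2.43, 1.07 and 1.41 CPM against 2.03, 4.35 and 1.35 CPM. Its fitted fold was 1.55, and 1.03 without NeuroD1 replicate 2. The difference between role groups was not tested.

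Checkpoint, chromosomal passenger and mitotic exit genes had a median of 1.11, with 4 of 7 higher at an unadjusted p under 0.05. Bub1b, a spindle checkpoint protein that holds back chromosome separation, read 9.52, 12.8 and 9.56 CPM with GFP and 26.3, 47.4 and 15.7 CPM with NeuroD1. Bub1, the checkpoint kinase, read 3.85, 5.08 and 6.09 CPM with GFP and 12.7, 25.2 and 6.46 CPM with NeuroD1. Both were free of overlap, though NeuroD1 replicate 3 of Bub1 only just so, at 2.80-fold and 2.94-fold (edgeR adjusted p = 0.137 and 0.141; 1.99-fold and 1.92-fold without NeuroD1 replicate 2).

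Cdc20, an activator of the anaphase-promoting complex (APC/C), and Ube2c, the enzyme that passes it ubiquitin, were 2.04-fold and 2.33-fold higher at an unadjusted p under 0.05, but NeuroD1 replicate 3 lay within the GFP range in each. They were 1.42-fold and 1.38-fold without NeuroD1 replicate 2. Birc5 encodes survivin, a chromosomal passenger protein that works with the kinase Aurkb. Its levels were 5.57, 15.9 and 14.7 CPM with GFP and 17.7, 41.3 and 11.7 CPM with NeuroD1. NeuroD1 replicate 3 was below 2 of the GFP libraries (1.96-fold, edgeR adjusted p = 0.287; 1.23-fold without NeuroD1 replicate 2). Aurkb and the checkpoint kinase Ttk had fitted folds of 1.97 and 2.16 (edgeR adjusted p = 0.214 and 0.216).

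Among 11 spindle genes 9 were higher at an unadjusted p under 0.05, with a median of 1.31. Hmmr, a spindle assembly factor and hyaluronan receptor (chromosome 11, 40701395 to 40733422), read 5.87, 4.94 and 4.78 CPM with GFP and 16.2, 29.6 and 9.60 CPM with NeuroD1. Kif11, the motor that pushes spindle poles apart, read 10.4, 13.8 and 11.1 CPM with GFP and 30.7, 46.4 and 18.6 CPM with NeuroD1. All NeuroD1 libraries exceeded all GFP libraries in both, at 3.54-fold and 2.71-fold (edgeR adjusted p = 0.136 for each; 2.49-fold and 2.11-fold without NeuroD1 replicate 2). The motors Kif15, Kif18b and Kif4 and the centrosomal kinase Nek2 also did not overlap, at 2.81-fold, 2.48-fold, 2.79-fold and 2.56-fold. Without NeuroD1 replicate 2 their folds were 1.97, 1.63, 2.19 and 1.90.

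Tpx2, which targets Aurora A to the spindle, the depolymerising motor Kif2c and the microtubule-bundling Nusap1 were 2.07-fold, 2.20-fold and 2.12-fold higher at an unadjusted p under 0.05 with overlapping groups, and 1.44-fold, 1.50-fold and 1.41-fold without NeuroD1 replicate 2. Knstrn, a spindle and kinetochore protein, had the largest p of the group and read 10.9, 15.5 and 13.3 CPM with GFP and 17.02, 37.6 and 13.3 CPM with NeuroD1. NeuroD1 replicate 3 again fell within the GFP range (1.71-fold, edgeR adjusted p = 0.258). Aurka, the Aurora A kinase of the spindle poles, averaged 7.15 ± 2.22 CPM in the GFP libraries and 14.3 ± 9.82 CPM in the NeuroD1 libraries (SD, n = 3; edgeR adjusted p = 0.249), with a log2 fold change of 0.997 that was 0.29 without NeuroD1 replicate 2.

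Cytokinesis genes held both ends of the list, with 6 of 7 higher at an unadjusted p under 0.05 and a median of 1.26. Ect2, the exchange factor that activates RhoA to build the contractile ring (chromosome 3, 27097222 to 27153878), had the highest fold of the 46 genes. It read 4.15, 1.87 and 2.61 CPM with GFP, from 14 to 41 counts per library, and 12.2, 23.1 and 7.09 CPM with NeuroD1. The groups did not overlap, and the fold was 4.85 (log2 fold change 2.28, SE 0.50; edgeR adjusted p = 0.136), or 3.33 without NeuroD1 replicate 2. Kif20b, a kinesin that acts in abscission, read 5.87, 5.08 and 5.76 CPM with GFP and 18.8, 33.3 and 9.25 CPM with NeuroD1. Its 3.65-fold difference was also free of overlap (edgeR adjusted p = 0.136; 2.52-fold without NeuroD1 replicate 2).

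The central spindle genes Kif20a, Prc1 and Racgap1 were 2.85-fold, 2.17-fold and 2.40-fold higher without overlap, and Kif23, the motor partner of Racgap1, was 2.34-fold higher with overlap. Their folds without NeuroD1 replicate 2 were 2.12, 1.63, 1.75 and 1.48. Anln, the actin-binding scaffold of the contractile ring, stood apart with the lowest fold of the list. It read 44.4, 47.7 and 27.4 CPM with GFP and 44.96, 52.9 and 33.8 CPM with NeuroD1, so the groups overlapped (log2 fold change 0.14, SE 0.27; edgeR adjusted p = 0.763). The fitted direction turned without GFP replicate 3 (-0.07) or NeuroD1 replicate 2 (-0.0071). Anillin is also made by mature oligodendrocytes, where it supports the septin filaments of myelin. The 8 mature oligodendrocyte markers were a list added after the data were seen. At an unadjusted p under 0.05 in edgeR 4 of 8 were lower, against 11.5% of all tested genes. All 8 were lower in fitted level, against 48.3% of tested genes, with Ermn nearly level (0.959-fold, edgeR unadjusted p = 0.807). These markers summed to 10650 to 20730 CPM with GFP and 6777 to 9255 CPM with NeuroD1. Their part in the level of Anln was not tested.

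**Figure D3:**
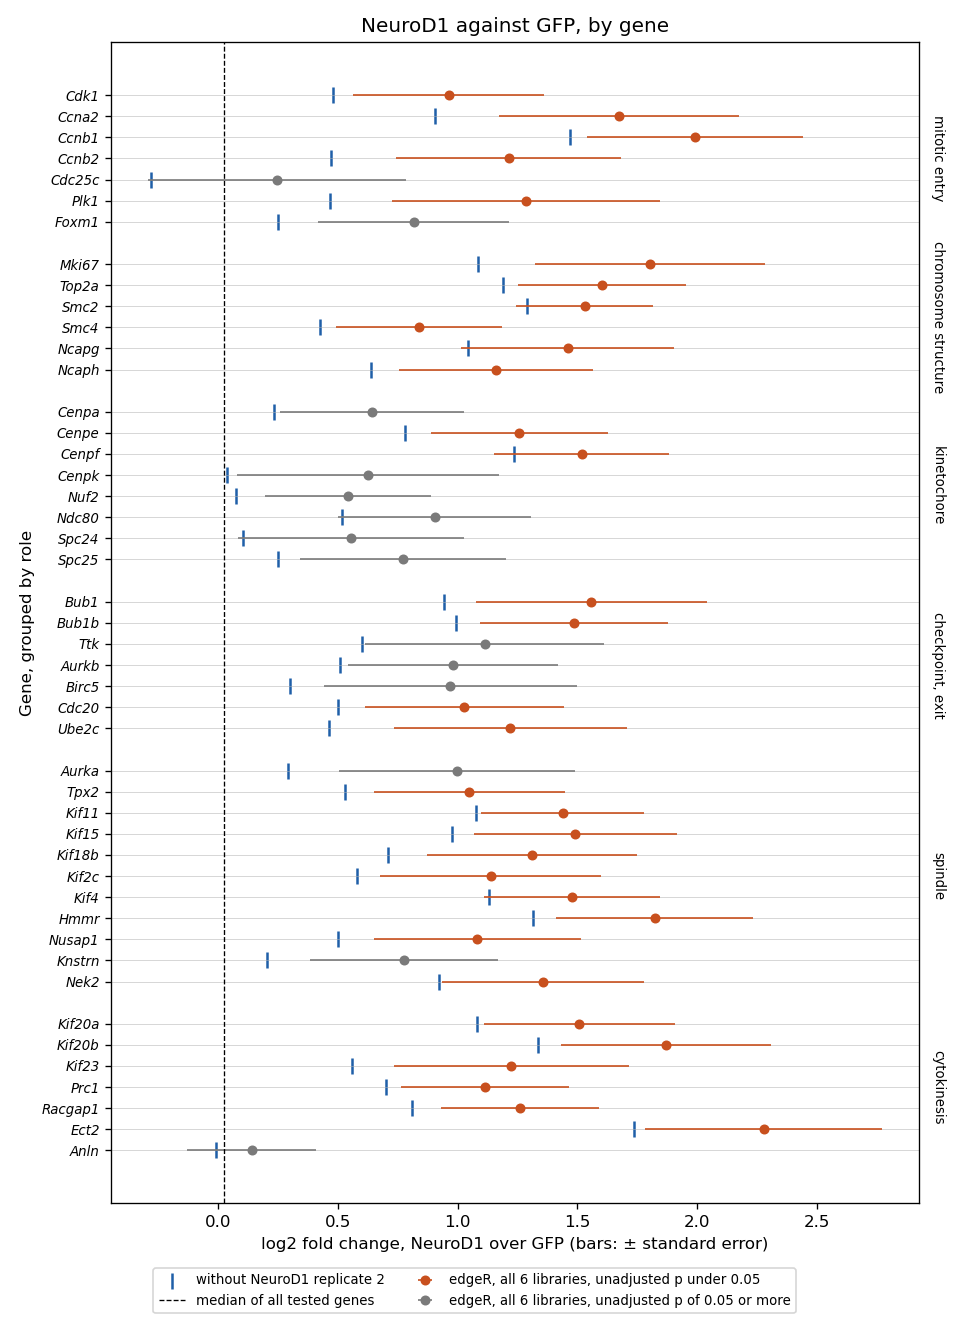
log2 fold change of NeuroD1 over GFP for each of the 46 genes (points, orange at an unadjusted p under 0.05 and grey otherwise; bars, ± standard error from edgeR, 3 libraries per group), with the value without NeuroD1 replicate 2 as a blue tick and the median of all tested genes as a dashed line. All points lie above 0, from 0.14 for Anln to 2.28 for Ect2, and every blue tick lies to the left of its point.

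Per kilobase of annotated exon, the order of the genes differed between groups. The lengths cover every GENCODE M21 exon of a gene and may differ from those of the mm10 gene models used for counting. With GFP the highest levels were 6.84 CPM per kilobase for Ccnb2, 6.04 for Smc4, 5.78 for Mki67 and 5.57 for Plk1. With NeuroD1 they were 20.2 CPM per kilobase for Mki67, 15.9 for Ccnb2, 13.6 for Plk1 and 11.1 for Top2a. Cenpk was the lowest in both groups, at 0.313 CPM per kilobase with GFP and 0.493 with NeuroD1. Next came Kif15 with GFP (0.455) and Cdc25c with NeuroD1 (0.580).

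Other genes of the cell cycle, taken from lists that do not contain the 46, were counted in the same fit. Among 72 further mitotic genes 27 were higher and 2 lower at an unadjusted p under 0.05 (median log2 fold change 0.74), against 12.5% of all tested genes higher and 11.5% lower. Plk4, the kinase that starts centriole duplication, was 3.33-fold higher and the kinetochore scaffold Casc5 4.13-fold higher (edgeR adjusted p = 0.136 each). The 2 lower genes were Psrc1, a microtubule regulator, at 11.98 ± 2.87 CPM with NeuroD1 against 22.3 ± 6.61 CPM with GFP, and the securin gene Pttg1, the guard of sister chromatid separation, at 19.7 ± 2.34 against 28.5 ± 3.65 CPM in the same order (SD, n = 3; edgeR adjusted p = 0.145 and 0.181). Without NeuroD1 replicate 2 the higher count was 17, and without NeuroD1 replicate 3 it was 42; no gene was lower once GFP replicate 3, or else NeuroD1 replicate 1, was left out, and 1 was when GFP replicate 2 was.

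DNA replication genes had higher fitted levels in 22 of 22, with 13 higher at an unadjusted p under 0.05 and a median of 0.99. Of all tested genes 51.7% were fitted higher. At an unadjusted p under 0.05 in edgeR 12.5% of them were higher and 11.5% lower. The replicative helicase genes Mcm6 and Mcm4 were 3.11-fold and 2.01-fold higher (edgeR adjusted p = 0.136 each). Among 19 regulators of G1 and S phase 7 were higher and 0 lower (median 0.45), led by the kinase gene Cdk6 (3.24-fold) and the repressor E2f8 (3.69-fold). E2f8 read 5.17, 6.55 and 6.95 CPM with GFP and 15.97, 43.1 and 9.96 CPM with NeuroD1, and its fold was 2.10 without NeuroD1 replicate 2. Without GFP replicate 3 or NeuroD1 replicate 2 the higher count was 4. In the opposite direction no gene of this list had an unadjusted p under 0.05 with all libraries. The smallest p were those of Cdc7, the kinase that fires replication origins, and Ccnd2, a G1 cyclin (edgeR unadjusted p = 0.178 and 0.788). They stood at 9.24 ± 4.13 and 77.5 ± 32.6 CPM with NeuroD1 against 13.6 ± 3.67 and 83.2 ± 29.4 CPM with GFP.

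The APC/C is the ubiquitin ligase that ends mitosis. Of its 14 listed subunits 1 was higher (Cdc27, 1.42-fold) and 1 lower (Anapc13, 1.76-fold lower) at an unadjusted p under 0.05, with a median of -0.0113. Both counts were under the shares of all tested genes, 12.5% higher and 11.5% lower. Next in each direction were Anapc1, at 108.9 ± 16.5 CPM with NeuroD1 against 80.7 ± 4.82 CPM with GFP, and Cdc26, at 12.1 ± 1.97 against 18.2 ± 4.35 CPM in the same order. The higher count was 0 with any of GFP replicates 2 and 3 and NeuroD1 replicate 1 left out. Cyclin-dependent kinase inhibitors, the brakes of the cycle, had 1 of 6 tested genes higher and 0 lower, against the same shares of all tested genes. That gene was Cdkn2c, 1.93-fold higher (edgeR adjusted p = 0.157), and the count was 0 without GFP replicate 3 or NeuroD1 replicate 2. Cdkn1a, which encodes p21, averaged 52.6 ± 21.2 CPM with GFP and 76.4 ± 28.7 CPM with NeuroD1. In the same order Cdkn2b averaged 2.62 ± 1.001 and 1.46 ± 0.388 CPM, and Cdkn1c 17.02 ± 2.23 and 15.5 ± 3.67 CPM.

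DREAM, MuvB and NF-Y are the regulators known to act at the promoter elements shown above. Of 15 DREAM, MuvB and NF-Y genes 4 were higher and 1 lower at an unadjusted p under 0.05 (median 0.27). Of all tested genes 12.5% were higher and 11.5% lower, so the lower share of the list was under that of all tested genes. Lin54, the MuvB subunit that contacts the CHR, was 2.33-fold higher and the pocket protein gene Rbl1 3.04-fold higher (edgeR adjusted p = 0.136 each). Lin37, another MuvB subunit, was 1.53-fold lower (edgeR adjusted p = 0.189), and Lin52, also of MuvB, was at 10.6 ± 2.16 CPM with NeuroD1 against 15.4 ± 3.94 CPM with GFP. No gene was lower when any of GFP replicates 2 and 3 and NeuroD1 replicate 1 was left out. Mybl2, which encodes B-Myb, was at 7.72 ± 6.38 CPM with NeuroD1 against 5.73 ± 1.72 CPM with GFP, and the groups overlapped. Its fitted fold was 1.35 (edgeR adjusted p = 0.653), and 0.724 without NeuroD1 replicate 2. Of all libraries Mybl2 was highest in NeuroD1 replicate 2 and lowest in NeuroD1 replicate 3. In the cohesin list 6 of 10 genes were higher and 0 lower (median 0.60), against the same shares of all tested genes. They were led by Pds5a (1.99-fold) and Wapal (1.60-fold). Leaving out any of GFP replicates 2 and 3 and NeuroD1 replicate 1 left 1 higher gene, while leaving out NeuroD1 replicate 2 left 3. In the other direction the smallest p were those of Mau2 and Stag1, neither under 0.05 (edgeR unadjusted p = 0.116 and 0.887). They stood at 75.9 ± 9.74 and 62.3 ± 9.90 CPM with NeuroD1 against 96.3 ± 10.2 and 63.5 ± 4.60 CPM with GFP.

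Summed markers of some cell types were higher in NeuroD1 libraries, as the mitotic sum was. Beside the counts of marker genes below, 12.5% of all tested genes were higher and 11.5% lower at an unadjusted p under 0.05 in edgeR. Infiltrating myeloid markers were higher at an unadjusted p under 0.05 in 7 of 10, with summed levels of 844.0, 2248 and 2151 CPM in the GFP replicates and 5358, 8161 and 2641 CPM in the NeuroD1 replicates. Lyz2 carried most of that sum, with 91.6% to 94.4% of it per library. Without Lyz2 the sum was 71.1, 125.4 and 135.5 CPM in the GFP replicates and 326.4, 572.6 and 215.9 CPM in the NeuroD1 replicates. Ccr2, Plac8, Ly6c2 and Ms4a4c did not peak in NeuroD1 replicate 2, and S100a4 had a fitted fold of 1.05. Fibroblast markers were higher in 9 of 10, at 879.5, 864.9 and 1652 CPM against 3574, 6040 and 1528 CPM. In NeuroD1 replicate 3 the fibroblast sum lay within the GFP range. Both sums had the order of the mitotic sum among the NeuroD1 libraries, highest in replicate 2 and lowest in replicate 3. Among the GFP libraries the myeloid sum also had the order of the mitotic sum, though not without Lyz2, while the fibroblast sum was lowest in GFP replicate 2, where the mitotic sum was highest. Lymphocyte markers, 3 of 6 tested higher, summed to 7.19 to 21.1 CPM with GFP and 34.6 to 35.7 CPM with NeuroD1. Cd4 took 35.1% to 71.3% of that sum per library. Without Cd4 the sum was 2.835, 10.15 and 10.97 CPM in the GFP replicates and 20.64, 10.26 and 22.71 CPM in the NeuroD1 replicates. NeuroD1 replicate 2 then lay within the GFP range. Of the microglial markers 1 of 10 was higher and 1 lower, near the shares of all tested genes. Microglial markers summed to 3725, 3934 and 3326 CPM in the GFP replicates and 5204, 5738 and 3767 CPM in the NeuroD1 replicates. The microglial sum thus also had the order of the mitotic sum among the NeuroD1 libraries. In NeuroD1 replicate 3 it lay within the GFP range. Among the GFP libraries it was highest in replicate 2, as the mitotic sum was, but lowest in replicate 3.

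Other marker lists ran differently. Their counts are also at an unadjusted p under 0.05 in edgeR, against 12.5% of all tested genes higher and 11.5% lower. Endothelial markers were lower in 8 of 10, at 597.6 to 911.9 CPM with GFP and 225.3 to 466.4 CPM with NeuroD1. Astrocyte markers (3 of 10 lower) summed to 9601 to 15830 CPM and 5679 to 10350 CPM, and neuroblast and progenitor markers (2 of 9 lower, 0 higher) to 148.0 to 206.3 CPM and 158.8 to 185.5 CPM. Oligodendrocyte precursor markers (4 of 10 higher) summed to 612.1 to 688.7 CPM and 700.5 to 945.2 CPM, with NeuroD1 replicate 2 the lowest of its group. Of those 4 genes Pdgfra is also among the fibroblast markers and Cspg4 among the pericyte markers, so each is counted in 2 lists. Within the NeuroD1 group Pdgfra, Cspg4 and C1ql1 were highest in replicate 2, while Gpr17, Olig1, Olig2, Neu4 and Lhfpl3 were lowest there. Pericyte markers had 2 of 8 higher and 3 lower, with sums of 426.4 to 478.6 CPM and 387.3 to 753.0 CPM. Cortical neuron markers (0 of 8 either way) were lowest in NeuroD1 replicate 2, at 1631 CPM against 4182 and 5014 CPM in replicates 1 and 3. Of the red blood cell precursor markers Hbb-bs, Hbb-bt, Hba-a1 and Hba-a2 were at 0 in all libraries, and the list summed to at most 1.01 CPM. The part of these cell types in the levels of the mitotic genes was not tested.

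**Figure D4:**
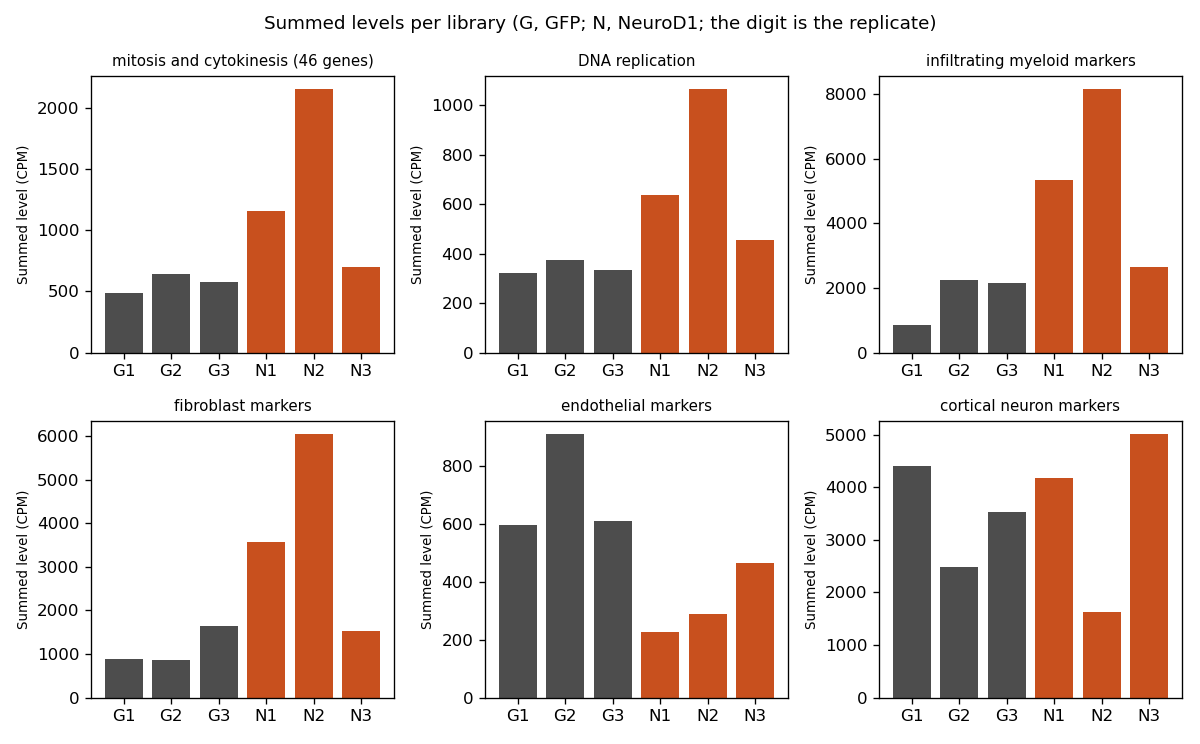
Summed level (CPM, TMM-scaled) per library of the 46 mitosis and cytokinesis genes, the DNA replication genes and 4 marker lists; grey bars are GFP replicates (G1 to G3), orange bars are NeuroD1 replicates (N1 to N3), and each panel has its own axis from 0. The mitotic, replication, myeloid and fibroblast sums are highest in N2, where the cortical neuron sum is lowest.

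No source used here gives the strand setting of the counting, so reads of overlapping genes on opposite strands cannot be told apart. Exons of 9 of the 46 genes share bases with an opposite-strand gene that is also in the table, over 2.84% to 29.3% of the gene's exon length. The largest such share was that of Kif20a with Cdc23, an APC/C subunit that read 31.3 ± 4.17 CPM with GFP and 37.8 ± 1.40 CPM with NeuroD1. The others were Ccna2, Ncapg, Cenpk, Cdc20, Ube2c, Kif4, Nusap1 and Prc1.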

How the data were processed

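Bulk RNA libraries of 6 cortex samples, 3 GFP and 3 NeuroD1, were compared. The authors deposited unnormalised counts per symbol, which the header of the table shows to come from featureCounts with mm10 gene models. The submitters' processing notes list GRCm38, HISAT2 2.0.1 and DESeq2 1.16.1 but no role for any of them. No source used here gives the strand or multi-mapping settings. Columns were matched to samples by the sample descriptions.

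Counts were tested with edgeR 4.0.16 (quasi-likelihood test, TMM scaling, filterByExpr with a minimum count of 10) in R 4.3.3, with treatment as the only term. P-values were adjusted by Benjamini-Hochberg over 14852 genes at a threshold of 0.05. Standard errors came from the F statistic. DESeq2 1.42.0 and limma-voom 3.58.1 were alternatives, with other scalings and filters, a robust prior, a replicate block and each library left out; DESeq2 without each library was added after the data were seen. Exon lengths came from GENCODE M21 on GRCm38.

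The genes and lists were chosen with earlier results of these data known. Values per library are given for the 2 genes with the smallest p and the gene with the largest p in each role, and for Mki67, Top2a, Cdk1, Ccnb1 and Foxm1. The 2 smallest p in each direction were named in each other cell cycle list, and Mybl2 was added because it encodes B-Myb. All 46 genes could be named. The mature oligodendrocyte markers were added after the data were seen. Pairs of libraries differed by more than sampling noise (chi-square per gene of 29.1 to 165), so none was treated as a duplicate.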

Additional observations from a re-analysis of the deposited data

How the results depend on the processing

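Depth limits the scarce genes most: Cenpk and Cdc25c had 8 to 48 counts per library. With the size factors of DESeq2 in edgeR, upper quartile scaling, no filter, a stricter filter (minimum count 50, which removed Cdc25c, Cenpk and Ttk) or a robust prior, 27 to 36 of the 46 genes were higher at an unadjusted p under 0.05 and the median log2 fold change was 1.12 to 1.24; limma-voom gave 22 and 1.03. The share of all tested genes higher at an unadjusted p under 0.05 was counted only for the main fit (12.5%) and for edgeR with a library left out. Counts of the 46 at that p in other settings thus have no share beside them. Upper quartile scaling moved the median of all tested genes from 0.0243 to -0.059. The count of genes past the adjusted threshold was 0 in all of these, 1374 with DESeq2 and 479 with the replicate block, of which 21 and 4 (Top2a, Smc2, Kif11 and Kif4) were among the 46. Of all tested genes, DESeq2 called 5.07% higher and the replicate block 1.47%. The cause of the difference between settings was not tested. The labels do not say whether equal replicate numbers mark pairs. Between the groups, replicates 1, 2 and 3 had deviations from the group means that correlated at 0.539, 0.371 and 0.039 over genes. Replicates 1 and 2 of either group correlated best with the replicate of the same number. GFP replicate 3 correlated best with NeuroD1 replicate 2 (0.129). With the replicate block 33 of 46 had an unadjusted p under 0.05 and a higher level.

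Leaving out a library gave 20 to 40 of the 46 genes higher at an unadjusted p under 0.05 in edgeR, against 6.13% to 15.3% of tested genes. The median was 0.59 to 1.53, and 0 to 1 genes passed the adjusted threshold. Between 23 and 40 genes were without overlap (40 without NeuroD1 replicate 3, against 23.6% of tested genes). That count could not change without NeuroD1 replicate 1 or 2, since replicate 3 was the lowest of its group in every gene. The 7 other cell cycle lists had 59 of their genes higher at an unadjusted p under 0.05 with all libraries and 39 to 85 with a library left out (39 without NeuroD1 replicate 2), with medians of 0.293 to 0.818 against 0.643. DESeq2 with a library left out called 2046, 162 and 224 genes without GFP replicates 1, 2 and 3 and 256, 1003 and 2380 without NeuroD1 replicates 1, 2 and 3, of which 14, 8, 7, 9, 11 and 36 were among the 46. At an unadjusted p under 0.05 it gave 20 to 41 of the 46 and 37 to 86 genes of the other lists, the lowest of each without NeuroD1 replicate 2. With a library left out the log2 fold change of Cdc25c ran from -0.28 (without NeuroD1 replicate 2; DESeq2 -0.27) to 0.476 and was -0.14 without GFP replicate 1 (DESeq2 -0.11). That of Anln ran from -0.0662 (without GFP replicate 3; DESeq2 -0.0503) to 0.305 and was -0.0071 without NeuroD1 replicate 2.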

Other observations

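The NeuroD1 library with the fewest Neurod1 counts, replicate 2 with 151, was the one with the highest level of all 46 mitosis and cytokinesis genes; replicates 1 and 3 had 644 and 428 Neurod1 counts. With 3 libraries per group this is given as values only.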
